A study of Rattus norvegicus with 2 samples.

Results

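Of 11599 circular RNAs (circRNAs) in the deposited table, 258 had 10 or more back-splice reads in one library and were listed at 0 in the other. They comprise 174 circRNAs listed in the sham library only and 84 listed in the bone cancer pain (BCP) library only. These reads chose the members, so the presence on one side and the 0 on the other are described here and not tested. Both libraries came from rat spinal cord taken 21 days after surgery. In the BCP group live Walker256 cells, a rat mammary carcinoma line grown as ascites in SD rats, were injected into tibial bone marrow, and sham rats received the same cells boiled for 20 min. The labels describe 3 animals and 1 library per group, and give neither the animals' age nor whether their RNA was pooled. No value below has a replicate check, so each comparison concerns the pair of libraries, not the conditions.

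A circRNA is a closed molecule formed by back-splicing, in which the end of an exon joins the start of the same or an earlier exon, and a read across that junction identifies it. One gene can give several circRNAs that differ in the splice sites joined. Many circRNAs are abundant in the nervous system, and having no free end they resist exonucleases that degrade linear RNA. A listing belongs to a junction and not to a gene, so the other circRNAs of the host gene are given beside each group of members.

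The sham library held 113033 back-splice reads and the BCP library 78836, so sham was 1.43 times as deep. The smallest count above 0 was 2 reads in each library, so a listing at 0 may also cover a circRNA with a single read or one that a filter removed, and no upper limit or fold is given against it. At equal levels, 10 reads in sham correspond to 6.97 reads in BCP, and 10 reads in BCP to 14.3 in sham. Intervals are exact 95% intervals (Clopper-Pearson, conditional on the total for ratios) and cover counting error only, since the reads carry no molecular identifiers and are not independent molecules. Among marker genes, 6 of 7 neuron genes hosted circRNAs (1318 sham and 815 BCP reads without members), and 0 of 4 epithelial and 0 of 4 skeletal muscle genes did. Astrocyte genes had 5 sham and 3 BCP reads (1 of 5 listed, Gfap and Aqp4 at 0), spinal and motor neuron genes 2 and 0 (1 of 6 listed, Chat and Isl1 at 0), and vessel genes 19 and 34 without members (3 of 5 listed). Schwann cell and ganglion genes had 0 sham and 17 BCP reads, none of them in a member. There 1 of 5 genes was listed, with Prx, Scn10a, Scn9a and Prph at 0. Whether the 2 samples differed in cell types was not tested.

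The sequences of the junctions are not printed, because no genome of the build used for the table (rn6) was at hand. For a single member the table names a miRNA gene as host, rno-mir-6317-1 (chromosome 1, 259479327 to 259488326, 11 reads in sham and 0 in BCP). Another circRNA with the same start (259479327 to 259489683) had 9 reads in sham and 0 in BCP. That host was thus listed in sham only, but a circRNA not given to it overlapped the member and had 2 reads in BCP. The mature miRNA of that name, from RefSeq (GRCr8), is shown to identify the locus, with the seed (bases 2 to 8) in capitals. Whether it lies inside the circRNA was not tested.
rno-miR-6317: gUGAACCUgagagaaaggcuc

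The first question was how often a circRNA with ample reads in one library was missing from the other. Of 2225 circRNAs with 10 or more reads in sham, 174 (7.82%) were listed at 0 in BCP. In the other direction, 84 of 1592 circRNAs (5.28%) were missing from sham. Depth enters this comparison: when the sham minimum was raised to the same CPM (reads scaled to a total of 1e+06 circRNA reads), which means at least 15 reads, 74 of 1398 remained (5.29%, interval 4.18 to 6.60). The members held 3627 sham reads (3.21% of that library) and 1653 BCP reads (2.097%).

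Most members lay close to the minimum. In sham, 127 of the 174 had fewer than 20 reads, and the median was 13. In BCP, 53 of the 84 did, and the median was 15. Just inside the rule were 34 circRNAs with exactly 10 reads in sham and 11 with exactly 10 in BCP. Just outside were 63 with 9 reads in sham and 0 in BCP, and 18 with 9 reads in BCP and 0 in sham. A further 60 circRNAs with 10 or more sham reads were listed in BCP at 2 reads, and 14 the other way round.

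The share listed at 0 fell steeply up to 10 reads and less beyond. Among circRNAs with 2 to 4 sham reads 69.4% were at 0 in BCP, and among those with 5 to 9 sham reads 40.6%. The share was 10.4% (8.78 to 12.3) at 10 to 19 sham reads, 5.01% (3.47 to 6.96) at 20 to 49, 5.45% (2.85 to 9.33) at 50 to 99 and 1.54% (0.187 to 5.45) at 100 or more. In BCP the corresponding shares at 0 in sham were 6.13% (4.63 to 7.95) at 10 to 19 reads, 5.71% (3.86 to 8.10) at 20 to 49 and 1.29% (0.157 to 4.58) at 50 to 99. None of the 65 circRNAs with 100 or more BCP reads was at 0 in sham, which leaves a share of up to 5.52% by the same interval. From 20 to 49 reads on, the intervals of neighbouring classes overlapped in both libraries.

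**Figure D1:**
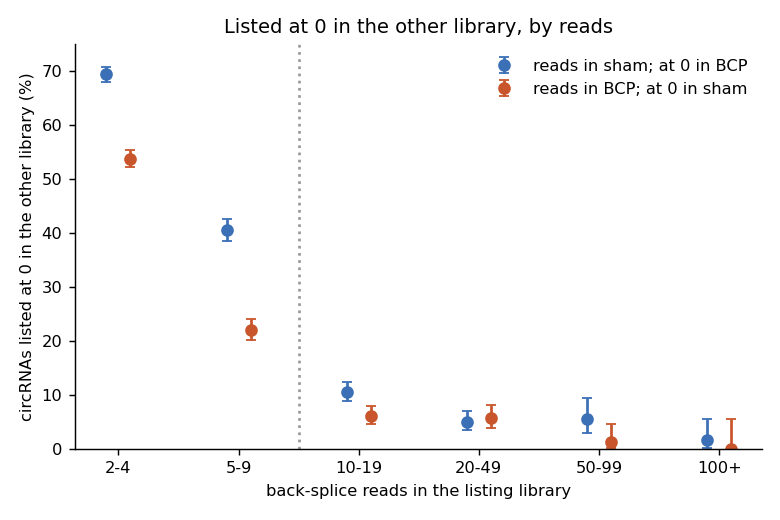
Share of circRNAs listed at 0 in the other library (%, y axis) by back-splice reads in the listing library (x axis), for sham (blue) and BCP (orange). Bars are exact 95% binomial intervals and the dotted line marks the minimum of 10 reads; the sham share fell from 69.4% at 2 to 4 reads to 10.4% at 10 to 19 reads.

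Above 20 reads the listing was split into 0 and well above 0, with little between. Of 1009 circRNAs with 20 or more sham reads, 47 were at 0 in BCP, 0 were at 2 reads, 1 was at 3 and 9 were at 4. Of 350 with 50 or more sham reads, 14 were at 0 in BCP, and the lowest count among the other 336 was 7. Of 728 with 20 or more BCP reads, 31 were at 0 in sham, 0 were at 2 or 3 and 3 were at 4. What sets these 47 and 31 circRNAs to 0 was not tested.

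The sham-only side was led by a 269 bp circRNA of LOC100362999, an uncharacterised locus, with 287 reads (chromosome 6, 59301040 to 59301308). That is 2539 CPM (2254 to 2850), and no other circRNA of this host or overlapping it was listed in BCP. Next came a circRNA without a host name with 124 reads (chromosome 1, 119464809 to 119545970; 1097 CPM, 913 to 1308). All others had 67 reads or fewer. The other members among the 10 with most reads were Rabgef1 (67 reads), which encodes an exchange factor for the endosomal GTPase RAB5, a 150 bp circRNA without a host (65), the centrosomal gene Cep97 (63), the acyltransferase gene Mboat2 (61), Nop58 of the box C/D small nucleolar ribonucleoprotein (61), one on chromosome 13 that has no host name (58), the kinesin motor gene Kif1b (57) and the microtubule-associated gene Mtus2 (54).

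The BCP-only side had no such dominant circRNA. Brap, whose product binds BRCA1 and restrains RAS signalling, had 52 reads (chromosome 12, 40388299 to 40397763; 660 CPM, 493 to 865), and 50 reads came from a junction on chromosome 6 with no host name (141147178 to 141258469). They were followed by Hlcs (holocarboxylase synthetase, 48), RGD1565616 (48), Eif4g3 of the translation initiation complex (46), the histone deacetylase gene Hdac2 (43), the Polycomb-associated gene Asxl1 (43), Klhdc1 (33), Lrrc16a (32) and the chaperone gene Dnajc1 (32). In CPM these 10 ranged from 406 to 660, and the intervals of the first and the last of them (493 to 865 and 278 to 573) overlapped.

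For most members the host gene was not missing from the other library. A single host name was left for 128 sham-only circRNAs (123 genes) and 67 BCP-only circRNAs (65 genes). Of these, 98 sham-only circRNAs (76.6%, 68.3 to 83.6) had a host with another circRNA listed in BCP, against 78.8% (76.8 to 80.7) of circRNAs with 10 or more sham reads that were listed in both libraries. Among BCP-only circRNAs 46 of 67 (68.7%, 56.2 to 79.4) had a host with another circRNA listed in sham, against 80.9% (78.7 to 83.0). The first pair of intervals overlapped widely and the second by a small margin.

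**Figure D2:**
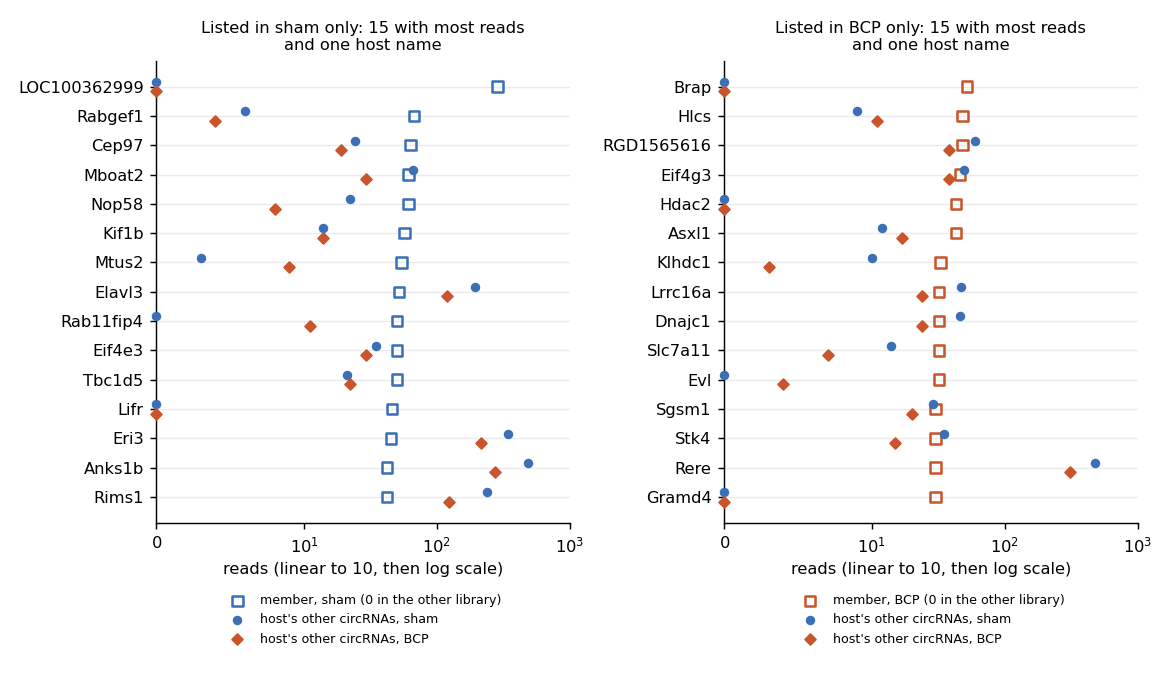
Reads (x axis, linear to 10 and then logarithmic) of the 15 members with most reads and a single host name on each side (open squares), with the summed reads of all other circRNAs of the same host in sham (circles) and BCP (diamonds). LOC100362999, Lifr, Brap, Hdac2 and Gramd4 had no other circRNA, while Anks1b had 484 sham and 275 BCP reads in others.

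In some genes the member was a minor isoform beside circRNAs abundant in both libraries. Ssbp2, which encodes a protein that binds single-stranded DNA, gave a sham-only circRNA of 10 reads (chromosome 2, 20507150 to 20549441), beside 3070 sham and 1865 BCP reads of its other circRNAs, members included. Elf2, an ETS transcription factor gene, gave one of 10 reads beside 1063 and 662, and Rims2 of the presynaptic active zone one of 11 reads beside 868 and 548. Rere, a nuclear receptor corepressor gene, gave one of 11 reads beside 468 and 340, and Anks1b, whose product sits in the postsynaptic density, one of 42 reads beside 484 and 275. On the BCP side the largest such hosts were Ssbp2 (29 reads beside 3080 sham and 1836 BCP reads), Rere (30 and 28 reads), the acyl-CoA binding gene Acbd6 (17 reads beside 280 and 160) and Cpeb3, a regulator of mRNA translation at synapses (19 reads beside 172 and 130).

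Elsewhere the member was the main product of its gene. Among members whose host had at least one other circRNA, the member had the most reads of its host in its library in 64 of 109 cases in sham and in 36 of 51 in BCP. Since the rule sets a minimum for the member and none for the others, these counts are descriptive. Members were the only circRNA of their host for 19 sham-only circRNAs (14.8%, 9.18 to 22.2) and 16 BCP-only circRNAs (23.9%, 14.3 to 35.9), against 14.0% and 15.1% among circRNAs with 10 or more reads listed in both. Besides LOC100362999, the sham-only genes of this kind with most reads included the leukaemia inhibitory factor receptor gene Lifr (46 reads), the deubiquitinase gene Usp8 (20) and the cytokine signalling kinase gene Jak2 (18). In BCP they were Brap, Hdac2, Gramd4 (30), Flywch1 (26) and RGD1310352 (24).

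A further 11 sham-side hosts and 5 BCP-side hosts had 2 or more circRNAs, all of them at 0 in the other library. Those named below were picked with their values in view. In sham they included the calcium pump gene Atp2a2 (4 circRNAs, 33 reads), the glucoside xylosyltransferase gene Gxylt1 (29 reads), the vascular endothelial growth factor receptor gene Flt1 (27), the tubulin polyglutamylase gene Ttll7 (25) and the phosphodiesterase gene Pde8b (22). In BCP they included the actin regulator gene Evl (36 reads), the deubiquitinase gene Usp7 (28), the complement gene C4a (21) and Ercc6l2 (21). In these hosts the circRNAs other than the member had 13 reads or fewer together.

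In 8 sham-side and 4 BCP-side hosts the listing was exchanged: the member was the only circRNA of its gene in its library, and the gene's other circRNAs were listed in the other library alone. Rab11fip4, a RAB11 effector gene, had a sham-only circRNA of 50 reads (chromosome 10, 66957634 to 66970781) and a pair of circRNAs with 3 and 8 reads in BCP and 0 in sham. One of that pair ended at the same position, 66970781. Shank3, a scaffold gene of excitatory synapses, had 14 sham reads in one circRNA (chromosome 7, 130522030 to 130524289) and 7 and 4 BCP reads in 2 others, of which the second shared its end. The sham-side genes also included Utp6, Mnd1 and Nelfcd. On the BCP side they were Oxsr1 (28 reads in BCP, 2 in another circRNA in sham), Akap2 (20 and 7), Plekhg1 (11 and 2) and Ipmk (10 and 4). The second set of reads in these hosts is low, and exchange was not tested.

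Only 4 genes had members on both sides: Ssbp2, Rere, Acbd6 and Wdpcp. In Ssbp2 the sham-only and the BCP-only circRNA share the start 20507150 with the dominant circRNA of that gene (2842 sham and 1708 BCP reads). They run on to 20549441 (10 and 0 reads in sham and BCP) and to 20626804 (0 and 29 reads), while the dominant one ends at 20531444. In Wdpcp, a planar cell polarity and cilium gene, they share the end 106500203 on chromosome 14. The circRNA from 106488333 had 17 sham reads and the one from 106492370 had 11 BCP reads, and each was at 0 in the other library.

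Rere gave 2 BCP-only circRNAs and 1 sham-only circRNA on chromosome 5. The first BCP-only one spanned 98850 bp (167516581 to 167615430, 30 reads) and the second 466 bp (167455211 to 167455676, 28 reads), while the sham-only one spanned 61741 bp (167486001 to 167547741, 11 reads). Every end of the first lay at a junction site that other Rere circRNAs used in sham. The short one shared its start with a circRNA of 4 sham and 0 BCP reads. In Acbd6 on chromosome 13, the sham-only circRNA (73239822 to 73319284, 25 reads) and the BCP-only one (73255237 to 73265813, 17 reads) overlap. The circRNA that joins the start of the first to the end of the second had 165 sham and 96 BCP reads, and the one that joins the remaining 2 sites had 7 reads in each library. All 4 sites of this pair were thus in use in both libraries.

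A few genes gave more than 1 member on the same side. In sham they were Nupr1 (3 members), Ispd, Ift74 and Psd3, and in BCP RGD1565616 and Rere. Ispd, a gene of dystroglycan glycosylation, had sham-only circRNAs of 18 and 10 reads and 45 sham and 20 BCP reads in its other circRNAs. Ift74, an intraflagellar transport gene, had sham-only circRNAs of 17 and 10 reads, and its remaining circRNAs had 18 and 5. Psd3, an ARF6 exchange factor gene, had sham-only circRNAs of 14 and 12 reads, while its remaining circRNAs had 262 sham and 220 BCP reads (BCP over sham 1.20, 1.00 to 1.45). The pair from RGD1565616 (48 and 14 BCP reads) shared the end 123304722 on chromosome 3, and no other circRNA of that gene used it. From the same start as the first of them, 123299120, another circRNA ran to 123308032 with 38 sham and 17 BCP reads. The 24 circRNAs given to Nupr1 covered 1011523 bp, against a median cover of 13431 bp per host, so that name is doubtful.

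Whether the rest of a host's circRNAs moved with the member could be looked at in reads that the rule did not use. Leaving out all members, the 123 sham-side hosts had 11180 sham and 7177 BCP reads, a ratio of CPM of BCP over sham of 0.9204 (0.893 to 0.948). The 65 BCP-side hosts had 5138 and 3223 reads, a ratio of 0.899 (0.860 to 0.940), and 0.962 (0.898 to 1.03) without Ssbp2. The 3681 hosts without members had a ratio of 1.03 (1.01 to 1.04). As a group, the remaining circRNAs of BCP-side hosts were not higher in BCP. Among hosts with 10 or more remaining reads, the median log2 ratio was -0.12 over 83 sham-side hosts, -0.15 over 39 BCP-side hosts and 0.06 over 1960 hosts without members. Median-of-ratios scaling shifts every log2 ratio by -0.10: the summed ratios were then 0.856 for sham-side hosts and 0.836 for BCP-side hosts, and that of hosts without members turned to 0.954 (0.944 to 0.964). Both sums thus lay below that of hosts without members under either scaling, but the direction of the last depends on it. The sums of the sides are not separate, because Ssbp2, Rere, Acbd6 and Wdpcp have members on both sides and are counted in each. Ssbp2 alone gave 3070 sham and 1836 BCP reads to both sums, and Rere 468 and 282. The likeness of the sides is therefore in part the same reads, and a BCP-side sum without all of these hosts was not computed.

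Single hosts went either way. The interval of the ratio lay below 1 for 13 of 83 sham-side hosts (15.7%) and above 1 for 9 (10.8%). For BCP-side hosts it lay below 1 for 6 of 39 (15.4%) and above 1 for 3 (7.69%). Among hosts without members these shares were 8.67% and 9.85%. Ssbp2 is counted in both the 13 and the 6. With median-of-ratios scaling the counts were 17 and 6 on the sham side, 7 and 3 on the BCP side, and 224 and 161 of 1960 without members. App, the amyloid precursor protein gene, had a sham-only circRNA of 11 reads, yet its remaining circRNAs had 188 sham and 259 BCP reads (ratio 1.98, 1.63 to 2.40). Conversely, the calcium channel gene Cacna1a had a BCP-only circRNA of 13 reads, and its remaining circRNAs had 57 sham and 21 BCP reads (ratio 0.528, 0.304 to 0.885). The neurofilament gene Nefm had a BCP-only circRNA of 12 reads and otherwise 17 sham and 2 BCP reads (ratio 0.169, 0.0189 to 0.711). The remainder lay on the member's side in Anks1b (484 and 275 remaining reads, ratio 0.815, 0.700 to 0.947) and in the active zone gene Rims1 (239 and 123, ratio 0.738, 0.589 to 0.921). Genes in this paragraph were picked after their values were seen.

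Junction sites were often shared with circRNAs of the other library. Of the 174 sham-only circRNAs, 91 (52.3%, 44.6 to 59.9) had a start or an end in common with a circRNA that had reads in BCP. Among circRNAs with 10 or more sham reads that were listed in both, 63.6% (61.5 to 65.7) shared an end with a different circRNA listed in BCP. Of the 84 BCP-only circRNAs, 35 (41.7%, 31.0 to 52.9) shared an end with a circRNA that had reads in sham, against 68.9% (66.5 to 71.2). These pairs of intervals did not overlap on either side. At 10 to 19 reads alone the shares were 50.4% (41.4 to 59.4) and 59.9% (56.9 to 62.8) in sham, which overlap, and 34% (21.5 to 48.3) and 66.5% (63.1 to 69.7) in BCP, which do not. For 73 of the 91 and 28 of the 35, the most abundant such partner had reads in both libraries.

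Examples with both ends in use elsewhere were Rims1 and Grip1. The sham-only circRNA of Rims1 (42 reads, 49320 bp) shared its start with circRNAs listed in BCP and its end with others, and so did that of Grip1 (21 reads), a gene for a glutamate receptor scaffold. Such members numbered 16 of 174 in sham and 7 of 84 in BCP (9.20% and 8.33%), against 20.1% and 26.7% of circRNAs listed in both. At the other extreme, 65 sham-only circRNAs (37.4%, 30.2 to 45) overlapped no circRNA listed in BCP, against 32.7% (30.6 to 34.7). On the BCP side 41 (48.8%, 37.7 to 59.96) overlapped none listed in sham, against 28.1% (25.9 to 30.5).

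**Figure D3:**
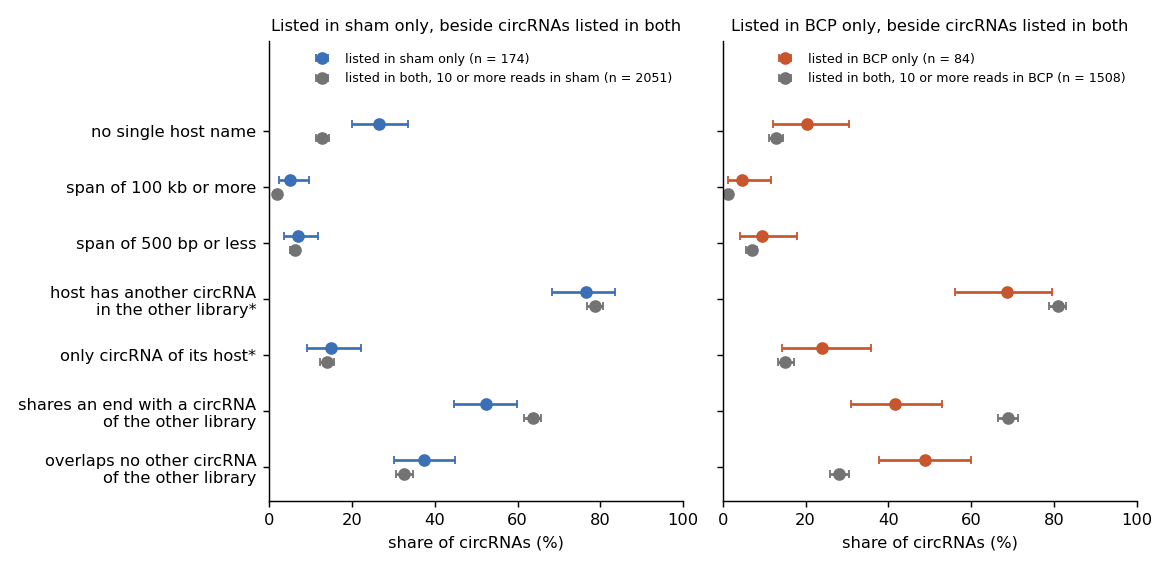
Shares of circRNAs (%, x axis) with each property, for members (coloured) and for circRNAs with 10 or more reads in the same library that were listed in both (grey), with exact 95% binomial intervals; an asterisk marks shares of circRNAs with a single host name. Sharing an end was less frequent among members than among circRNAs listed in both: 52.3% and 63.6% for sham, 41.7% and 68.9% for BCP.

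In 7 members the other library held a circRNA whose ends both lay within 10 bp. In Ptms, the parathymosin gene, the sham-only circRNA (chromosome 4, 157436084 to 157436365) had 19 sham reads. A circRNA with the same start and an end 6 bp further on had 35 sham and 46 BCP reads. In Eri3, an exonuclease gene, the sham-only circRNA had 45 reads, and one starting 6 bp further on had 10 sham and 3 BCP reads. The sham-only circRNA of Ubr2 (11 reads) had a neighbour starting 4 bp further on with 6 and 5 reads, and that of Folh1 (11 reads) a neighbour ending 4 bp earlier with 0 and 2 reads. On the BCP side, the circRNA of the N-type calcium channel gene Cacna1b (12 reads) had a neighbour ending 3 bp earlier with 3 sham and 2 BCP reads. That of Iqce (11 reads) had a neighbour starting 4 bp further on with 2 and 4 reads. The seventh, a 211 bp circRNA on chromosome 15 (27739023 to 27739233, 17 BCP reads), carries as its only name in the table the family of nuclear RNase P RNA. It had a neighbour shifted by 9 and 10 bp with 3 sham and 0 BCP reads. Counting these neighbours as the same circRNA would leave 170 and 81 members.

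Genomic span, the distance between the joined sites, was not part of the rule. The median was 9734 bp (interval of the median 6253 to 13148) for sham-only circRNAs and 8410 bp (7788 to 9127) for circRNAs with 10 or more sham reads listed in both. That of BCP-only circRNAs was 5551 bp (3587 to 9465), against 8023 bp (7217 to 8895). All of these intervals overlapped within a library. The shortest members were those of Gigyf1 (144 bp, 16 sham reads), a circRNA without a host (150 bp, 65 sham reads) and Adcy1, an adenylyl cyclase gene (150 bp, 11 sham reads). In BCP they were the 211 bp circRNA named above, Nefm (222 bp, 12 reads) and the GTPase activator gene Arhgap10 (231 bp, 20 reads). Spans of 100 kb or more were found in 9 sham-only circRNAs (5.17%, 2.39 to 9.59; 1.902% of those listed in both) and in 4 BCP-only ones (4.76%, 1.31 to 11.7; 1.26% of those listed in both). The longest was 194205 bp on chromosome 17 (11 sham reads), and in BCP 155196 bp on chromosome 6 (24 reads).

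**Figure D4:**
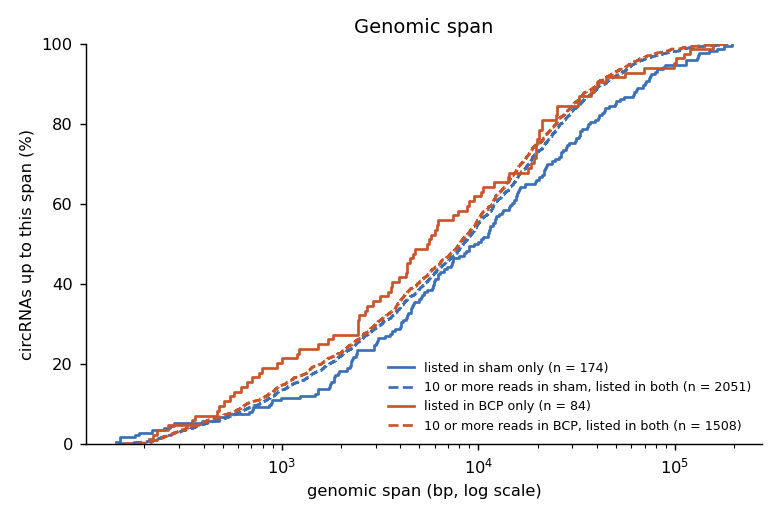
Cumulative share of circRNAs (%, y axis) by genomic span (bp, logarithmic x axis), for members (solid lines) and for circRNAs with 10 or more reads in the same library listed in both (dashed lines). Medians were 9734 and 8410 bp for sham and 5551 and 8023 bp for BCP, with overlapping intervals.

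Members lacked a single host name more often than circRNAs listed in both. This held for 46 of 174 sham-only circRNAs (26.4%, 20.1 to 33.6), against 12.9% (11.5 to 14.4), and the intervals did not overlap. On the BCP side it was 17 of 84 (20.2%, 12.3 to 30.4) against 12.8% (11.2 to 14.6), with overlapping intervals. Of the 46, 44 had no name left after small RNA family names and names spread along a chromosome were dropped, and 2 had several. The 46 had a median span of 18844 bp (quartiles 4781 and 63932), and the 128 with a host a median of 7316 bp. Of the 9 sham-only circRNAs of 100 kb or more, 7 had no host name, and so had 3 of the 4 in BCP. The median span of the 17 BCP-only circRNAs without a host was 4477 bp.

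Host genes were grouped by function, and each group is given as the share of its circRNAs with 10 or more reads that were at 0 in the other library, beside 7.82% for all circRNAs in sham and 5.28% in BCP. Across the groups 34 such shares were computed, with no adjustment, so an interval that misses the overall share is a description. Groups were patterns of gene symbols, which take in some unrelated genes and miss others of the named function. Each share is therefore that of a pattern. On the sham side, a group drawn from symbols of microtubule, motor and cilium genes had 10 members of 77 (13%, 6.41 to 22.6). Besides Cep97, Kif1b and Mtus2, these were Ttll7 (18 reads), the tau tubulin kinase gene Ttbk2 (17), Ift74 (17 and 10), the kinesin gene Kif13a (11) and, taken in by the pattern of their symbols alone, Wdr27 (15) and the ubiquitin ligase gene Ttc3 (10). In BCP that group had 1 member of 47 (2.13%, 0.0539 to 11.3), Ttc9 (15 reads), which likewise entered by its symbol. The pattern missed the cilium gene Wdpcp, with a sham-only member of 17 reads and a BCP-only member of 11. The contrast of the sides in this group thus depends on the pattern.

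Genes of the ubiquitin and SUMO system had 9 sham-only members of 73 (12.3%, 5.80 to 22.1), among them the ligase gene Wwp2 (24 reads), the conjugating enzyme gene Ube2h (23) and Usp8 (20). In BCP they had 2 of 53 (3.77%, 0.460 to 13), Usp7 (26 reads) and Usp6nl (25), of which the second was taken in by its symbol and encodes a RAB GTPase activator. Rab and membrane traffic genes had 7 of 59 in sham (11.9%, 4.91 to 22.9), namely Rabgef1, Tbc1d5 and Rab11fip4 (50 reads each for the last pair), Tbc1d15 (20), Rabgap1l (15), Ap3b1 (10) and Dennd5b (10). In BCP they had 1 of 36 (2.78%, 0.0703 to 14.5), the coat protein gene Sec24a (10 reads). This BCP share leaves out Usp6nl (25 reads), so the contrast of the sides depends here too on the pattern. The sham and BCP intervals of these 3 groups overlapped.

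The reverse order was seen for actin and GTPase signalling, with 1 sham-only member of 65 (Arhgef7, 11 reads; 1.54%, 0.0389 to 8.28) and 5 BCP-only members of 40 (12.5%, 4.19 to 26.8). The 5 were Lrrc16a, a regulator of actin filament ends (32 reads), Evl (32), Arhgap10 (20), Dock8 (12), an exchange factor of immune cells, and Plekhg1 (11). Ion channels had 1 sham-only member of 26, the calcium release channel gene Ryr2 (18 reads), and 3 BCP-only members of 23 (13%, 2.78 to 33.6). These 3 encode pore subunits of voltage-gated calcium channels: Cacna1a (13 reads), Cacna1b (12) and Cacna1c (11). For both groups the sham and BCP intervals overlapped.

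Chromatin regulator genes had members on both sides, 9 of 82 in sham (11%, 5.14 to 19.8) and 6 of 67 in BCP (8.96%, 3.36 to 18.5). In sham the cohesin gene Stag1 led (40 reads), and others were the demethylase genes Tet3 and Kdm5a (12 each). In BCP they were Hdac2, Asxl1, both circRNAs of Rere, the DNA demethylase gene Tet1 (18) and the histone demethylase gene Kdm2a (11). RNA-binding and splicing genes had 4 of 59 in sham (6.78%, 1.88 to 16.5), Nop58, the neuronal gene Elavl3 (52 reads), Zc3h11a (34) and Zc3h12c (10), and 1 of 36 in BCP, Cpeb3. Translation factors had 2 of 14 in sham, the cap-binding gene Eif4e3 (50 reads) and Gigyf1 (16), and 1 of 10 in BCP, Eif4g3.

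**Figure D5:**
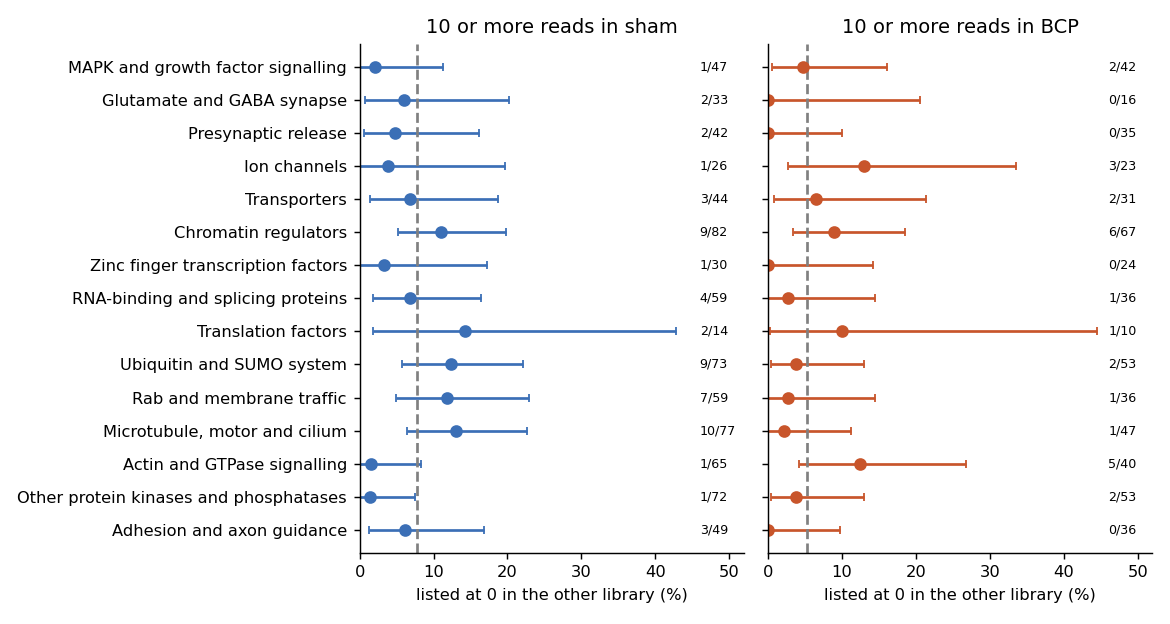
Share of circRNAs with 10 or more reads that were listed at 0 in the other library (%, x axis), by host function group, with exact 95% binomial intervals and the counts at the right; dashed lines mark the share over all circRNAs (7.82% in sham, 5.28% in BCP). Only groups with at least 10 such circRNAs in each library are drawn. The protein kinase and phosphatase group in sham (1 of 72) had an interval below the overall share, but its symbol pattern missed Jak2 and Ttbk2.

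A group drawn from symbols of other protein kinases and phosphatases had 1 member of 72 in sham (1.39%, 0.0352 to 7.50), Cdk17 (10 reads). In BCP it had 2 of 53 (3.77%, 0.460 to 13), Stk4 of the Hippo pathway (30 reads) and Oxsr1 (28). The pattern missed the sham-only kinase genes Jak2 (18 reads) and Ttbk2 (17), and a share over all kinase genes was not computed. The MAPK and growth factor group, which includes the pathway of the series title, had 1 of 47 in sham, the receptor gene Fgfr2 (35 reads; 2.13%, 0.0539 to 11.3), and 2 of 42 in BCP, Brap and the receptor gene Igf1r (11 reads; 4.76%, 0.582 to 16.2). Col8a1, a collagen gene named in the design text, hosted no listed circRNA.

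The synaptic groups had members in sham and none in BCP. Glutamate and GABA synapse genes had 2 of 33 (Grip1, 21 reads, and Shank3, 14) and 0 of 16 (0 to 20.6), and presynaptic release genes 2 of 42 (Rims1, 42 reads, and Rims2, 11) and 0 of 35 (0 to 10.003). Adhesion and axon guidance genes had 3 of 49 in sham, Cdh18 (11 reads), Cntn1 (10) and Pcdh10 (10), and 0 of 36 in BCP (0 to 9.74). Zinc finger transcription factor genes had 1 of 30, Zfp532 (11 reads), and 0 of 24. For each of these groups the BCP interval included the overall share of 5.28%. Transporters had 3 of 44 in sham, among them Atp2a2 (20 reads) and Atp11b (13), and 2 of 31 in BCP, Slc7a11 (32), whose product exchanges cystine for glutamate, and Slc26a11 (10).

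Glial and immune gene groups held few circRNAs. Oligodendrocyte, astrocyte and myelin genes had 2 BCP-only members, Slc7a11 and the myelin gene Mbp (27 reads), of 3 circRNAs with 10 or more BCP reads, and 0 of 2 in sham. Immune and microglia genes had 1 of 6 in BCP, Dock8, and 0 of 3 in sham. That pattern took in neither the complement gene C4a (BCP-only, 15 reads) nor the cytokine signalling gene Jak2 (sham-only, 18 reads). Members left out, the oligodendrocyte marker hosts had 11 sham and 18 BCP reads (3 of 6 genes listed, with Mobp, Mag and Cnp at 0). The microglia and macrophage marker hosts had 13 and 43 (3 of 7 listed, with Aif1, Csf1r, Cx3cr1 and Itgam at 0). The part of these cell types in the BCP-only circRNAs was not tested. In bulk tissue, fewer cells of a type and less RNA per cell cannot be told apart. Hosts with a provisional name (LOC, RGD or AABR) had 7 BCP-only circRNAs of 34 (20.6%, 8.70 to 37.9) and 2 sham-only of 34 (5.88%, 0.720 to 19.7).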

How the data were processed

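Counts of back-splice reads per circRNA were used as the authors deposited them, in 1 column per library. The columns headed TPM are CPM per the file's values: the deposited CPM differ from the count scaled to the column total by less than 0.001, and 0 is written as 0.001. The submitters' processing notes name CASAVA 1.8, BWA and the build rn6. Which program called the circRNAs, with what annotation and read minimum, the sources used here do not say. The table holds no strand, so overlapping and antisense hosts cannot be told apart. Per the labels' protocols, ribosomal RNA was removed and RNA was treated with 16 units of RNase R for 15 min.

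Small RNA family names and 11 names covering over 3 Mb of a chromosome were dropped, a rule set after the file was seen. This left 1 host for 10004 circRNAs. Of 184 member host names, 180 matched a RefSeq symbol or synonym (GRCr8, used for names). Function groups (17) were symbol patterns, which took in some unrelated genes and missed some genes of the named function. Members and groups were chosen with earlier results of these data known. Named members were, per side, the 10 with most reads, those of hosts with several members or members on both sides, the 5 with most reads in other circRNAs of the host, those with a neighbour within 10 bp, the 3 shortest and longest, and up to 4 per group. Further circRNAs and hosts were named after their values were seen.

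With 1 library per group there is no test. Intervals are 95% exact binomial. The steps were tested on simulated data. Alternatives were other minimums, an equal CPM, a tolerance of 10 bp, up to 2 reads in the other library, and scaling by DESeq2 1.42.0 (median of ratios) or edgeR 4.0.16 (TMM). Python 3.11.15 and SciPy 1.17.1 were used. Some items that the naming rule takes in are left out of the text.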

Additional observations from a re-analysis of the deposited data

How the results depend on the processing

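No paired analysis was possible because each group has 1 library. The number of members follows the read minimum. At 5 reads there were 1092 sham-only and 500 BCP-only circRNAs (24.3% and 14.4% of circRNAs at that minimum), and at 20 reads 47 and 31 (4.66% in sham). At an equal CPM minimum there were 74 sham-only circRNAs (5.29%). With up to 2 reads allowed in the other library, the sham share was 10.5%. Another setting took any name in the table as host, the dropped small RNA family names and names spread along a chromosome included. With it, 85.1% of sham-only and 81.0% of BCP-only circRNAs shared a name with another circRNA in the other library. Such names recur on many circRNAs, so these shares do not show that a host gene was listed there. The share of BCP-only circRNAs that share an end was 54.8% at 20 reads. The ratio for the remaining circRNAs of BCP-side hosts turned to 1.02 at a minimum of 5 reads (0.992 to 1.04) and was 0.962 without Ssbp2; other causes were not tested. The other 37 of 52 values, median spans and TMM scaling included, kept their direction and stayed within the interval of the main value, within 1.5 times the main count or, for ratios, on the same side of 1. Depth limits both counts: 10 sham reads correspond to 6.97 at the depth of BCP, and 10 BCP reads to 14.3 at that of sham.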

Other observations

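Members without a host name lay close together in a few places; these were picked after their positions were seen. The longest run of sham-only circRNAs without a host, with starts at most 2 Mb apart, lay on chromosome 1 from 117876637 to 121970076. It held 5 circRNAs with 10 or more sham reads, and all 5 were at 0 in BCP, with 232 sham reads together. In the same interval 0 circRNAs had 10 or more BCP reads. A nested pair among them shared no end: 119464809 to 119545970 had 124 sham reads and 119408244 to 119572205 had 16. On chromosome 6 the BCP library had a like pair, 141147178 to 141258469 with 50 reads and 141136031 to 141291226 with 24, both at 0 in sham and with no overlapping circRNA there. Between 221152418 and 221157392 on chromosome 1, short circRNAs of 150, 708 and 218 bp had 65, 24 and 14 sham reads and 0 in BCP. The locus was listed in BCP through other junctions: the circRNAs of 150 and 708 bp each overlapped 2 with 5 BCP reads, and that of 218 bp overlapped 6 with 34 BCP reads.

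Pairs of sham-only circRNAs without a host shared a start on chromosome 17 (19160994, 23 and 12 reads) and on chromosome 18 (13352206, 10 reads each). By chromosome, the share of circRNAs with 10 or more reads that were sham-only was highest on chromosome 9 (16 of 104, 15.4%, 9.06 to 23.8; 7.82% over all circRNAs), where 1 of 68 was BCP-only. The BCP-only share was highest on chromosome 20 (5 of 30, 16.7%, 5.64 to 34.7; 5.28% over all circRNAs), where 1 of 40 was sham-only. These are the extremes of all chromosomes, and no test of position was made.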
